A study of Danio rerio with 18 samples.

Results

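Antiviral interferon genes and the transcription factors that switch them on were followed tumour by tumour in zebrafish (Danio rerio) melanomas. The genes are mxa, mxb, isg15, rsad2, stat2, irf1b, irf7 and irf9. Each was matched by name to an Ensembl gene, which gave 8 of the 27057 genes in the count table. The reference table writes rsad2 and irf7 as RSAD2 and IRF7.

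RNA was sequenced from 18 whole tumours of adult fish that carried a plasmid injected at the 1-cell stage. All fish were in the Tu background without functional p53, in both groups, so no tumour here has wild-type p53. In 6 tumours BRAF V600E, an activated kinase, was driven by the promoter of mitfa, a melanocyte lineage factor. In 12 it was driven by the promoter of sox10, a neural crest and glial factor. They are called mitfa and sox10 tumours. Fish injected with a plasmid are usually mosaic, and whole tumours also hold host cells. Fish age and the number of fish are not given in the labels, so p-values measure the spread between these tumours.

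Interferons are secreted signals of infected or stressed cells. They bind receptors that activate Janus kinases, which phosphorylate STAT proteins. A complex that holds STAT2 and IRF9 enters the nucleus and turns on antiviral genes, and IRF7 then amplifies interferon production itself. Melanoma cells and immune cells can both express these genes. Roles given below are those known from mammals unless fish are named.

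Library depth was 14973777 to 21191902 reads assigned to genes. Summed melanocyte markers, 8 genes tested, were 4250 to 17954 CPM (counts scaled to 1000000 reads per library) in mitfa tumours but 22.1 to 132 CPM in sox10 tumours, although both groups are labelled melanoma. Glial markers, 8 genes tested, summed to 341 to 695 CPM in mitfa tumours and 3770 to 27431 CPM in sox10 tumours. Sox10 tumours 9 and 10 had unusually similar counts. The median squared deviation of their counts from a common ratio was 1.103 binomial variances, against 7.50 to 61.6 for other pairs and 0.455 under sampling noise alone. This exceeds sampling noise, and both were used as separate tumours. The tests thus treat them as independent, which was not tested. Mitfa tumour 6 stood apart for the interferon genes themselves, and values without it are given beside the results.

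Of the 8 genes, 6 fell in sox10 tumours and none rose at an adjusted p under 0.05 (edgeR's quasi-likelihood test, adjusted over all 18731 genes tested). Of all genes tested, 22.4% were lower by the same criterion, and 43.9% changed in either direction. The 8 log2 fold changes, sox10 minus mitfa, ran from -4.69 to 0.30 with a median of -1.89, beside a median of -0.03 over all genes tested. All 8 passed the filter on low counts, and the fewest reads in any tumour were 9. The genes that fell were the antiviral effectors mxa, mxb and isg15 and the regulators stat2, irf1b and IRF7. RSAD2 and irf9 did not pass the test. In whole tumours, fewer cells of a type and less RNA per cell cannot be told apart.

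**Figure D1:**
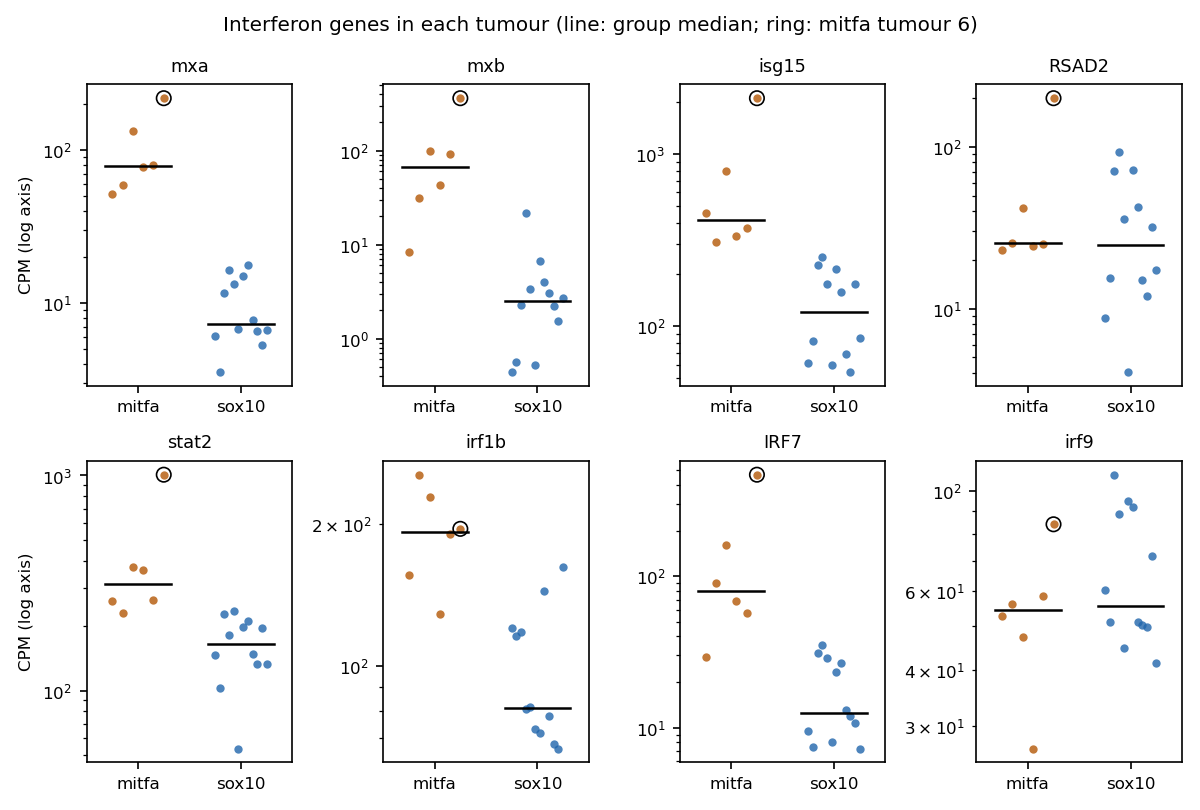
CPM (log axis) of each of the 8 genes in 6 mitfa and 12 sox10 tumours, 1 point per tumour, with a line at the group median and a ring around mitfa tumour 6. The groups do not overlap for mxa and isg15, whereas those of RSAD2 and irf9 overlap in part.

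The mx genes encode dynamin-like GTPases that block viral particles inside the cell. In mitfa tumours mxa ranged from 51.8 CPM in tumour 1 through a median of 78.8 to 219 CPM in tumour 6. The sox10 tumours had 3.55 CPM in tumour 2, a median of 7.27 and 17.9 CPM in tumour 8. The groups were thus fully apart, with the lowest mitfa tumour 2.90-fold above the highest sox10 tumour. The log2 fold change was -3.40 ± 0.35 (SE, n = 6 and 12, edgeR adjusted p = 3.30e-07).

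Its genomic neighbour mxb had the widest spread of the 8. Values in mitfa tumours ran from 8.42 CPM in tumour 1 through a median of 67.3 to 361 CPM in tumour 6. Those in sox10 tumours ran from 0.439 CPM in tumour 1 through a median of 2.50 to 21.5 CPM in tumour 4. Only sox10 tumour 4 lay above the lowest mitfa tumour, and the other 11 lay below it. The log2 fold change was -4.69 ± 0.76 (SE, edgeR adjusted p = 6.52e-05). It was -3.74 without mitfa tumour 6, -5.40 without sox10 tumour 4, and -5.52 with the leukocyte marker score as a covariate (edgeR adjusted p = 0.000452, 5.54e-06 and 0.00271). Reads of near-identical mx copies may be split or lost, so single copies are less certain than the family.

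Isg15 is a ubiquitin-like protein that is attached to other proteins after interferon exposure. Its mitfa values were 308 CPM in tumour 2, a median of 412 and 2110 CPM in tumour 6. Its sox10 values were 54.1 CPM in tumour 10, a median of 122 and 254 CPM in tumour 4. Every sox10 tumour lay below every mitfa tumour, by a margin of 1.21-fold. The log2 fold change was -2.44 ± 0.43 (SE, edgeR adjusted p = 0.000144), and -1.76 without mitfa tumour 6 (adjusted p = 0.00118).

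RSAD2 encodes viperin, an enzyme that makes a chain-terminating nucleotide against viral polymerases. In contrast to the mx genes, its group medians were almost equal, at 25.3 CPM in mitfa and 24.6 CPM in sox10 tumours. Mitfa tumours ranged from 23.2 CPM in tumour 1 to 200 CPM in tumour 6, and sox10 tumours from 4.05 CPM in tumour 6 to 93.5 CPM in tumour 4. Without its highest tumour the mitfa group spanned only 23.2 to 41.8 CPM, which lies inside the sox10 range. Its fitted log2 fold change was -0.70 ± 0.60 (SE, edgeR adjusted p = 0.362) and turned to 0.31 without mitfa tumour 6 (adjusted p = 0.693).

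The STAT and IRF proteins carry the signal from receptor to gene, and they did not all move together. Stat2, the signal transducer of the nuclear complex, had 230 CPM in mitfa tumour 2, a median of 313 and 1008 CPM in mitfa tumour 6. Sox10 tumours had 53.7 CPM in tumour 6, a median of 164 and 235 CPM in tumour 5. Only the highest sox10 tumour exceeded the lowest mitfa tumour, and it did so by little. Sox10 minus mitfa, the log2 fold change was -1.35 ± 0.31 (SE, edgeR adjusted p = 0.00156). The call was lost with the leukocyte marker score as a covariate (-1.19, adjusted p = 0.0621) and with the replicate block (-1.28, adjusted p = 0.104). The replicate block pairs tumours 1 to 6 of both groups by number alone and leaves out the other sox10 tumours. The calls lost there, here and below, came with both fewer tumours and smaller fold changes. The part of each was not tested.

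Its partner irf9 binds the DNA for that complex. It had 26.7 CPM in mitfa tumour 4, a median of 54.4 and 84.3 CPM in mitfa tumour 6. The sox10 tumours had 41.4 CPM in tumour 12, a median of 55.6 and 109 CPM in tumour 3. The groups overlapped and the log2 fold change was 0.30 ± 0.25 (SE, edgeR adjusted p = 0.344), with none of 29 alternative analyses making a call.

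IRF7, which amplifies the response, had the largest fall among the regulators. In mitfa tumours it ran from 29.3 CPM in tumour 1 through a median of 79.2 to 467 CPM in tumour 6. In sox10 tumours it ran from 7.26 CPM in tumour 12 through a median of 12.6 to 35.0 CPM in tumour 4. Only mitfa tumour 1 lay within the sox10 range, below 2 of the 12 sox10 tumours. On the log2 scale the difference was -3.03 ± 0.49 (SE, edgeR adjusted p = 5.60e-05), and -2.21 without mitfa tumour 6 (adjusted p = 0.000393). The RefSeq annotation of another build places phrf1 over irf7. PHRF1 rose, with a log2 fold change of 0.67 (edgeR adjusted p = 0.00612), and the strand setting of the counts is not given in the sources used here.

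Irf1b, a zebrafish copy of IRF1, a factor induced by type II interferon in particular, was the steadiest gene within mitfa tumours. Its values there were 129 CPM in tumour 4, a median of 193 and 255 CPM in tumour 2. Sox10 tumours had 66.5 CPM in tumour 11, a median of 81.3 and 162 CPM in tumour 12. Of these, 10 lay below every mitfa tumour. Its fitted log2 fold change was -0.97 ± 0.22 (SE, edgeR adjusted p = 0.00126). With the fraction of reads that fell outside genes added as a covariate (the outside-gene covariate) the call was lost (-0.61, adjusted p = 0.119), and that fraction was 9.46% to 12.8% in mitfa and 11.1% to 17.4% in sox10 tumours. Ddx46 overlaps irf1b in the RefSeq annotation, and DDX46 did not pass the test (log2 fold change 0.25, edgeR adjusted p = 0.375).

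For mxa and isg15, 2 of the 8 genes, every sox10 tumour lay below every mitfa tumour. Among all genes tested this held for 4.91%. For none of the 8 did every sox10 tumour lie above every mitfa tumour, which held for 6.85% of all genes tested.

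**Figure D2:**
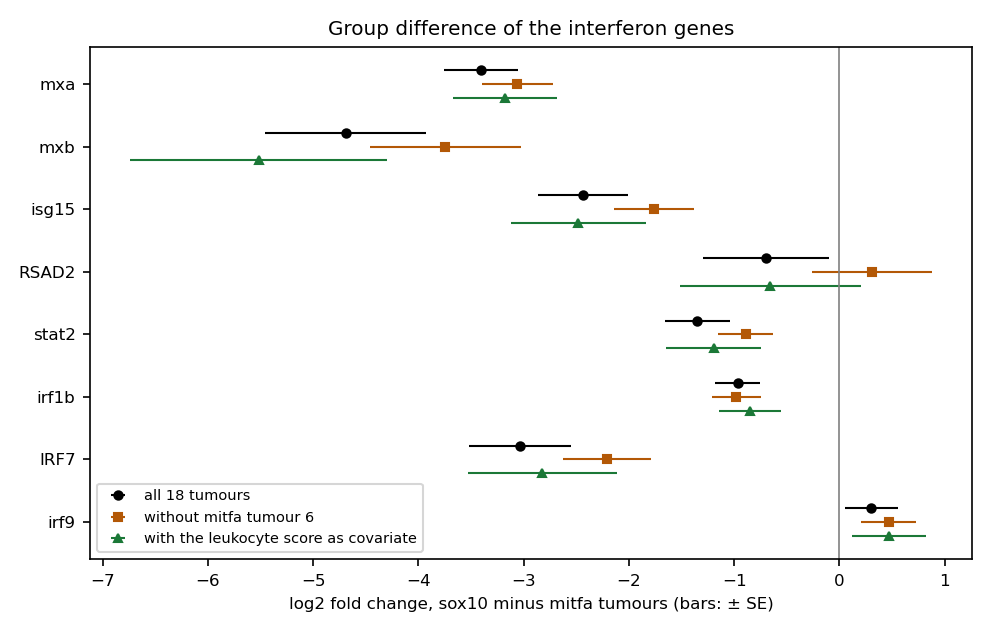
Log2 fold change (sox10 minus mitfa tumours) of each gene with its SE, for all 18 tumours, without mitfa tumour 6, and with the leukocyte marker score as a covariate. The 6 called genes stay below 0 in each, whereas RSAD2 moves from -0.70 to 0.31 without mitfa tumour 6.

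Mitfa tumour 6 had the highest value of its group for 7 of the 8 genes, the exception being irf1b. Against the median of the other 5 mitfa tumours its level was 8.32-fold for mxb, 7.93-fold for RSAD2, 6.83-fold for IRF7 and 5.67-fold for isg15. It was 1.03-fold for irf1b and 1.60-fold for irf9. Without it the count of falling genes was again 6, where 20.8% of all genes tested were lower. Tumour 3 came next in the group, with a median rank of 2 over the 8 genes, and tumour 1 was lowest for 4 genes. In tumour 6 summed leukocyte markers were 848 CPM, against 570 to 1011 CPM in the other 5. Summed neutrophil markers were 208 CPM there, against 23.2 to 60.4 CPM in the others. Their part in the result was not tested.

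Among sox10 tumours the same 5 tumours, numbers 3, 4, 5, 7 and 8, held the 5 highest values of mxa, of RSAD2 and of IRF7. For mxa none of the 12 lay between 7.73 and 11.6 CPM, and for IRF7 none lay between 13.1 and 23.1 CPM. For mxb, isg15 and stat2 4 of these 5 were among the top 5, for irf9 3, and for irf1b 2. Tumour 6 was lowest for 2 genes, RSAD2 and stat2. These sets were noticed in the values and are a description. For mxa the gap between them, from 2.97 to 3.55 in log2 CPM, was hardly wider than that between tumours 2 and 11, at 1.87 and 2.45.

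Marker sums in the same tumours were as follows. Summed leukocyte markers were 778 and 724 CPM in sox10 tumours 3 and 8, the highest of the 12, 365 and 400 CPM in tumours 5 and 7, and 303 CPM in tumour 4, the lowest. Summed macrophage markers were highest in tumours 3, 8, 6, 5 and 7, at 591, 554, 491, 485 and 398 CPM, and tumour 4 had 295 CPM. Of the 5 highest macrophage sums, 4 came from tumours in the high set for mxa. Other tissue markers differed between the 12 tumours as well. Summed muscle markers were 38.8 CPM or less in tumours 3, 4, 5, 6 and 7, and 603 CPM or more in the others. Tumour 8, of the high set, had 5368 CPM. Summed neuron markers were highest in tumours 7 and 4, at 1110 and 864 CPM. Tumours 5, 3 and 8 had 596, 461 and 372 CPM. Outside the high set, tumours 11 and 12 had 751 and 748 CPM, and tumours 9 and 10 had 540 and 542 CPM. Tumours 1, 2 and 6 had 390, 368 and 487 CPM. Summed glial markers in tumours 3, 4, 5, 7 and 8 were 16447, 18556, 10999, 27431 and 8115 CPM. Tumour 11 had 22167 CPM, tumour 6 had 9783 CPM and the remaining 5 tumours had 3770 to 5911 CPM. The part of any of these in the pattern was not tested.

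**Figure D3:**
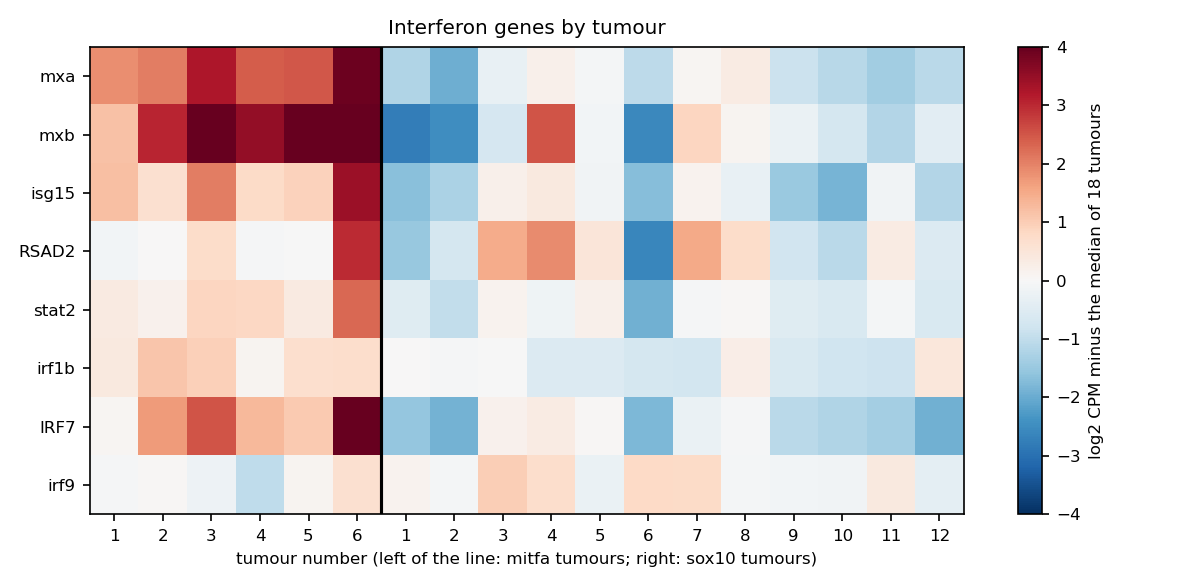
Log2 CPM of the 8 genes (rows) in each tumour (columns) minus the gene's median over 18 tumours, red for higher and blue for lower. Mitfa tumour 6 is the reddest column, and within the sox10 group columns 3, 4, 5, 7 and 8 are higher than the others for mxa, RSAD2 and IRF7.

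Within groups, mxa was compared with the other 7 genes and ptprc, the pan-leukocyte antigen CD45, with all 8, as 30 pairs over both groups on log2 CPM. In mitfa tumours no pair with mxa passed an adjusted p under 0.05 by the exact permutation test on Pearson's r, while 5 of 7 had an unadjusted p under 0.05. With RLE scaling factors 4 of the 7 passed. Pearson's r was 0.21 to 0.93 and Spearman's rho 0.26 to 1.0. Without tumours 3 and 6, the farthest from the mxa median, r was -0.41 to 0.91. Few tumours over a narrower range of mxa are then left, so r is uncertain there. For the pair of mxa and mxb, r was 0.92, and 0.91 without tumours 3 and 6. Its rho over all 6 tumours was 1.0 (exact permutation adjusted p = 0.0574 for r and 0.0417 for rho).

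In sox10 tumours 2 of 7 genes, mxb and IRF7, passed with mxa (permutation test on Pearson's r, adjusted p = 0.0339 and 0.00810). Over all 12, r was 0.78 with mxb and 0.90 with IRF7, and rho was 0.85 and 0.78. Without tumours 4 and 8, the farthest from the mxa median, r was 0.74 and 0.87. These coefficients span the gap in mxa between 7.73 and 11.6 CPM, which parts a lower and a higher set. Within the 7 tumours of the lower set, r with IRF7 was 0.46 and rho 0.29 (exact permutation p = 0.324 and 0.556). With mxb, r was 0.50 and rho 0.46 (exact permutation p = 0.253 and 0.302). None of the 7 pairs passed there at an unadjusted p under 0.05 (exact permutation adjusted p of r = 0.792 for both named pairs). Taking only the lower set narrows the range of mxa, and 7 tumours, among them the similar tumours 9 and 10, leave r uncertain.

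Ptprc itself fell in sox10 tumours (log2 fold change -1.11 ± 0.22, SE, edgeR adjusted p = 0.000490). Within groups, none of its 16 pairs with the interferon genes had an unadjusted permutation p under 0.05. Pearson's r was -0.44 to 0.56 over 6 mitfa tumours and -0.36 to 0.34 over 12 sox10 tumours. Spearman's rho was -0.31 to 0.54 and -0.34 to 0.27. The smallest adjusted p was 0.636. Without the 2 tumours farthest from the median, r was -0.94 to 0.53 and -0.38 to 0.088.

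**Figure D4:**
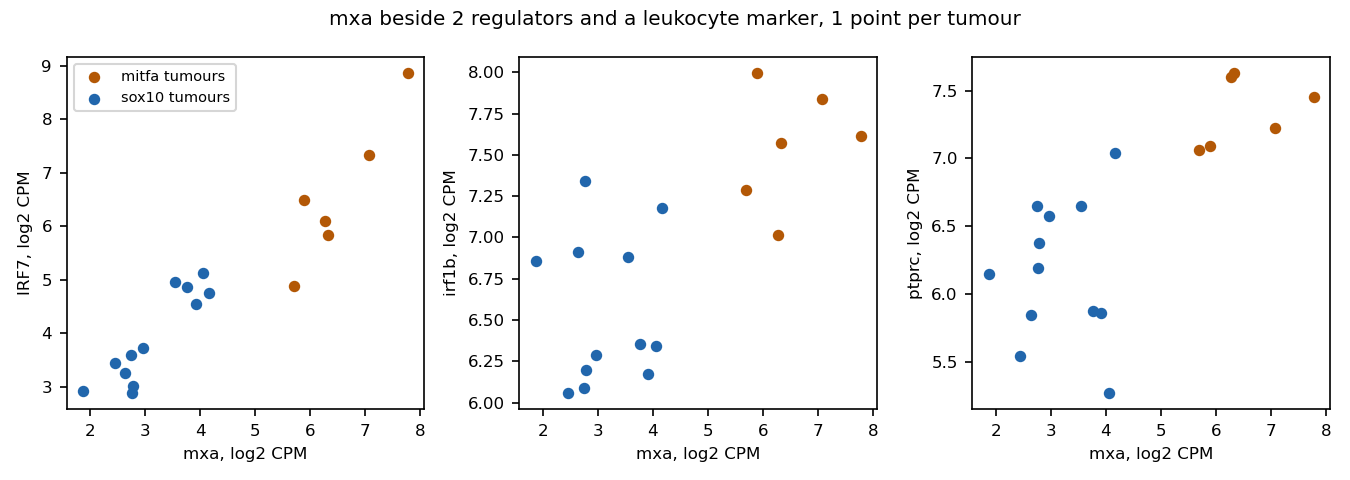
Log2 CPM of IRF7, irf1b and ptprc against mxa, 1 point per tumour. Among the 12 sox10 tumours, those with mxa at 11.6 CPM or more also have IRF7 at 23.1 CPM or more. Their ptprc is 38.5 to 132 CPM, and that of the other sox10 tumours is 46.6 to 100 CPM.

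Some immune cell markers were lower in sox10 tumours as well. Of 8 leukocyte markers tested 3 fell, of 9 macrophage markers 5 and of 7 T and NK cell markers 5, and none rose, where 22.4% of all genes tested were lower. Of 4 neutrophil markers none passed the test, with a median log2 fold change of 0.80 and sums of 23.2 to 208 CPM in mitfa and 9.59 to 704 CPM in sox10 tumours. Their sums did not all separate the groups. Leukocyte markers summed to 570 to 1011 CPM in mitfa and 303 to 778 CPM in sox10 tumours, macrophage markers to 613 to 1112 and 232 to 591 CPM, and T and NK cell markers to 38.8 to 103 and 12.4 to 39.4 CPM. None of these markers' sums was near 0 in either group. Of 4 B cell markers only 1, ighm, was tested, and it fell (log2 fold change -2.93, edgeR adjusted p = 0.00156). It had 13.1 to 147 CPM in mitfa tumours and 0.527 to 37.4 CPM in sox10 tumours. With the leukocyte marker score as a covariate, 5 of the 8 interferon genes fell, all those called before except stat2, where 11.7% of all genes were lower.

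The rest of the pathway was described by 6 lists with 84 further genes, of which 78 were tested. In these, 53 fell and 4 rose, with a median log2 fold change of -1.29, where 22.4% of all genes tested were lower and 21.5% higher. With the leukocyte marker score as a covariate the counts were 35 and 1, and without mitfa tumour 6 they were 49 and 4. Of all genes tested, 11.7% were lower in the first of these fits and 20.8% in the second.

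Interferon ligands were scarce. Ifnphi1, a type I interferon of fish, had 1.42 CPM in mitfa tumour 2, a median of 2.56 and 16.4 CPM in mitfa tumour 6, the tumour with most of the antiviral transcripts. In sox10 tumours it had 0.0487 to 0.892 CPM with a median of 0.379, from 1 to 17 reads per tumour. Every sox10 tumour was thus below every mitfa tumour. As a log2 fold change this was -3.41 ± 0.55 (SE, edgeR adjusted p = 6.39e-05), and -2.42 without mitfa tumour 6 (adjusted p = 0.000593). With the outside-gene covariate it was -2.77 (adjusted p = 0.0488). For ifng1, a type II interferon, the medians were 1.29 and 0.584 CPM (edgeR adjusted p = 0.220).

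Among receptors and kinases, 2 receptor chains of 3 fell and no kinase of 4 did, where 22.4% of all genes tested were lower. The 7 had a median log2 fold change of -0.11 and none rose. Crfb4, a receptor chain of the class II cytokine family, fell from a median of 22.1 to 5.499 CPM (log2 fold change -1.95 ± 0.24, SE, edgeR adjusted p = 2.59e-06). Crfb2, a receptor chain for type I interferons, fell from 13.04 to 7.72 CPM (-0.89 ± 0.17, SE, adjusted p = 0.000421). The 4 kinases, JAK1, both JAK2 genes and TYK2, had adjusted p of 0.390 to 0.982, and crfb1, another receptor chain, had a log2 fold change of -0.53 (adjusted p = 0.129).

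Of 15 nucleic acid sensors and adaptors 13 fell and none rose, where 22.4% of all genes tested were lower. The median log2 fold change was -1.29, and the 2 not called were the sensors TLR7 and tlr9 (edgeR adjusted p = 0.454 and 0.181). Mavs, the mitochondrial adaptor of the RNA sensors, ranged from 41.4 to 83.2 CPM in mitfa tumours and from 3.45 to 8.87 CPM in sox10 tumours, with no overlap. Its log2 fold change was -3.53 ± 0.22 (SE, edgeR adjusted p = 3.85e-10). MYD88, the adaptor of Toll-like receptors, fell from 28.3 to 51.2 CPM down to 8.10 to 18.1 CPM (-1.73 ± 0.19, SE, adjusted p = 6.47e-07).

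Among the other IRF and STAT factors 9 of 14 fell and 2 rose, where 22.4% of all genes tested were lower and 21.5% higher. Stat6, the factor of interleukin 4 signalling, fell by 1.61 on the log2 scale, and stat5a, a factor of growth and cytokine receptors, fell by 1.60. STAT3, which serves interleukin 6 family cytokines, rose from a median of 86.0 to 182 CPM (log2 fold change 1.04 ± 0.25, SE, edgeR adjusted p = 0.00266). Stat5b rose from 12.7 to 27.3 CPM (0.78 ± 0.23, SE, adjusted p = 0.00963). Neither passed the test under 3 alternatives. The log2 fold changes of STAT3 and stat5b were 0.81 and 0.48 with the outside-gene covariate (adjusted p = 0.0900 and 0.234), 0.93 and 0.72 with the leukocyte score as a covariate (0.0539 and 0.111) and 0.82 and 0.68 with the replicate block (0.108 and 0.115).

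Other interferon-induced effectors fell in 24 of 30 cases and rose in none, where 22.4% of all genes tested were lower and 21.5% higher. Their median log2 fold change was -1.97. Parp9, an ADP-ribosyltransferase of the interferon response, had 31.3 to 128 CPM in mitfa tumours and 3.28 to 14.6 CPM in sox10 tumours (-3.43 ± 0.30, SE, edgeR adjusted p = 4.23e-08). Ifi35, an interferon-induced protein, had 42.3 to 113 CPM and 7.37 to 21.0 CPM (-2.59 ± 0.25, SE, adjusted p = 1.56e-07). Summed over the list, mitfa tumour 6 had 4545 CPM, the other mitfa tumours 1297 to 1861 CPM and sox10 tumours 388 to 877 CPM.

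Among 10 feedback genes 4 fell and 2 rose, where 22.4% of all genes tested were lower and 21.5% higher. Usp18, which removes isg15 from proteins and restrains the receptor, fell from a median of 18.4 to 4.52 CPM (log2 fold change -2.34 ± 0.35, SE, edgeR adjusted p = 2.68e-05). It was -1.68 without mitfa tumour 6 and -1.72 with the leukocyte score as a covariate (adjusted p = 9.40e-05 and 0.0136). SOCS1, which blocks Janus kinases, fell from 48.8 to 16.3 CPM (-1.80 ± 0.31, SE, adjusted p = 0.000134). The 2 that rose were the PIAS1 genes, inhibitors of activated STAT proteins, with log2 fold changes of 0.98 ± 0.25 for ENSDARG00000062445 and 1.06 ± 0.31 for ENSDARG00000036094 (SE, adjusted p = 0.00379 and 0.00946). Neither PIAS1 rise was called with the outside-gene covariate (log2 fold changes 0.52 and 0.40, adjusted p = 0.217 and 0.458) or with the replicate block (0.66 and 0.80, adjusted p = 0.107 and 0.116). With the leukocyte score as a covariate ENSDARG00000062445 was not called (0.49, adjusted p = 0.233).

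**Figure D5:**
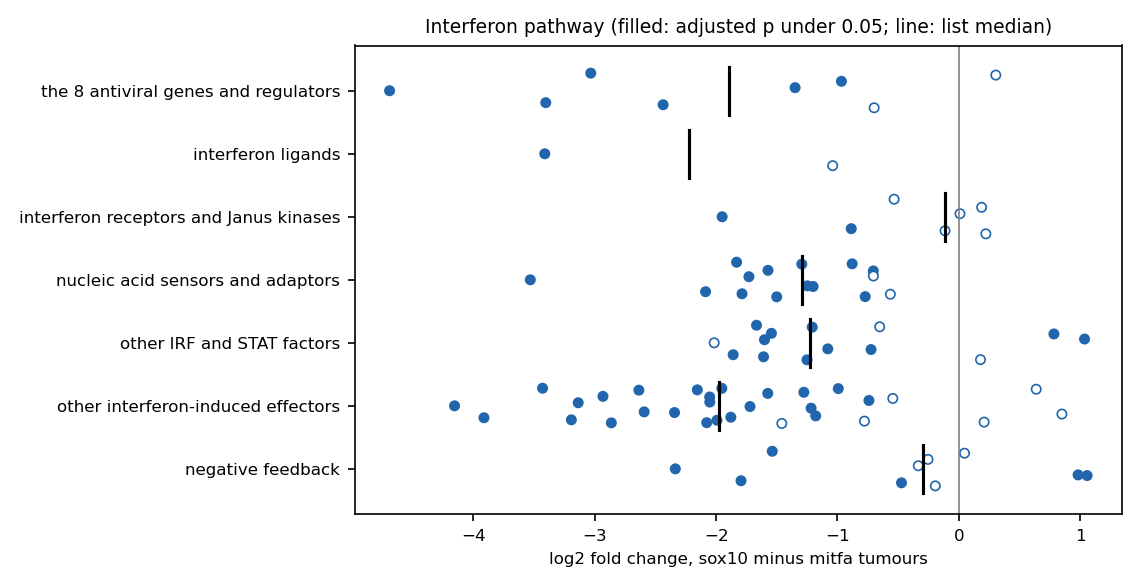
Log2 fold change (sox10 minus mitfa tumours) of each tested gene of the 8 antiviral genes and of the 6 pathway lists, filled where the adjusted p was under 0.05, with a line at each list's median. Effectors, and sensors with their adaptors, lie mostly below 0, at medians of -1.97 and -1.29, while the 4 Janus kinases lie between -0.11 and 0.22.

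After the group means were removed, 6 other genes followed the mean of the 8 most closely over 18 tumours, among 13543 named genes with a mean of at least 2 CPM. They were il4i1, an amino acid oxidase (r = 0.94), ZNFX1, an RNA helicase (0.93), ftr11, a finTRIM protein of fish (0.93), xaf1, an interferon-induced cofactor of cell death (0.92), ifit10, of the family of interferon-induced proteins with tetratricopeptide repeats (0.92), and CMPK2, a nucleotide kinase next to rsad2 in the genome (0.92). The 95th percentile of r over these candidates was 0.42. Of 70 pathway genes among the candidates, 20 were in the top 100. Between the groups all 6 fell, by 1.88 to 3.91 on the log2 scale, where 22.4% of all genes tested were lower. The 6 were picked for following the 8 genes and are no random draw of all genes. Il4i1 had means of 99.5 and 13.2 CPM in mitfa and sox10 tumours, and its log2 fold change of -2.92 was -1.78 without mitfa tumour 6 (edgeR adjusted p = 0.00298). For ifit10 the values were -3.91 and -2.98 (adjusted p = 0.000439; -3.30 with the outside-gene covariate, adjusted p = 0.0399), for ftr11 -3.67 and -2.63 (adjusted p = 0.000326), and for CMPK2 -1.88 and -1.29 (adjusted p = 0.00633). With the replicate block ftr11 was at -2.98 (adjusted p = 0.0334), while il4i1 at -2.28 and CMPK2 at -1.67 did not pass the test (adjusted p = 0.0621 and 0.0875).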

How the data were processed

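The authors deposited a table of raw counts covering 27057 Ensembl genes and 18 libraries; each column was matched to its tumour by the library name in the labels. The submitters' processing notes list FastQC, Trimmomatic, STAR, DESeq2 and the GRCz10 build, with no order. No source used here gives the annotation release or the strand setting. Entries that name no gene (unmapped, multimapping, outside genes, ambiguous) held 19.9% to 30.1% of reads and were left out.

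Names came from a reference table that named 24020 genes. Members were matched exactly, else ignoring case, else without a final a or b (list names also without a copy number, and left out above 3 genes). Of the names in the lists, 85 of 109 pathway and 67 of 76 marker names matched. Members and lists were chosen with earlier results of these data known. Some further genes are not reported here.

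Genes were filtered with filterByExpr (minimum count 10, total 15), scaled by TMM, then fitted with the quasi-likelihood model of edgeR 4.0.16 (R 4.3.3), robust dispersion and no covariate; the pipeline was tested on simulated data. SE is the fold change over the root of F. Log2 CPM used a prior count of 2. Correlations used 100000 resamples for 12 tumours and all orders for smaller sets; the lower set of sox10 mxa values was chosen after seeing the data. Named pathway genes were, per list and direction, the 2 called genes with the smallest adjusted p. Alternatives included DESeq2 1.42.0 and limma 3.58.1. No sequence is shown, since none was among the references used here.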

Additional observations from a re-analysis of the deposited data

Results flagged for a closer look

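Mitfa tumour 6 lay far above the other 5 mitfa tumours for 5 of the 8 genes, by the gap to its nearest neighbour over the group's range (Dixon's limit of 0.625 for 6 samples). The values there were 361 CPM for mxb (next highest 98.5), 2110 CPM for isg15 (next 802), 199.6 CPM for RSAD2 (next 41.8), 1008 CPM for stat2 (next 373) and 467 CPM for IRF7 (next 161). The rule was applied to CPM. On log2 CPM the gap is a smaller part of the range, most so for mxb, isg15 and IRF7. The rule was not applied there, so the flags were made on CPM and were not checked on log2 CPM. Chance flags about 1 in 20 groups if values are normally distributed, which was not tested for CPM. The genes share this tumour, so the flags are not independent. The limits used here did not extend to 12 tumours, so the sox10 group was not tested. Sox10 tumour 4, at 21.5 CPM for mxb (next highest 6.75), was therefore not checked by this rule.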

How the results depend on the processing

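The call of mxa, mxb, isg15 and IRF7 held in all 29 alternatives, among them DESeq2, limma, other scaling factors, other filters and each tumour left out. Over these fits the highest adjusted p of the group test was 0.000828 for mxa, 0.0306 for mxb, 0.0364 for isg15 and 0.0309 for IRF7. For mxb and isg15 it came from edgeR with the outside-gene covariate. The count of interferon genes that fell was 6 with each tumour left out and 5 to 6 otherwise, and none rose in any alternative. With the counts of sox10 tumours 9 and 10 summed it was 6, where 21.4% of all genes were lower. Of the pathway genes 49 to 55 fell and 4 to 5 rose with 1 tumour left out, where 19.4% to 22.7% of all genes were lower. With the leukocyte score as a covariate 35 fell and 1 rose, and under the outside-gene covariate 38 fell and 1 rose. All genes called lower went from 4190 to 2188 and 2489 with these covariates. The log2 fold change of RSAD2 ranged from -0.93 (without sox10 tumour 4) to 0.31 (without mitfa tumour 6, with the sign changed) with 1 tumour left out, and was -1.03 without mitfa tumours 1 and 5. With RLE scaling, 4 genes instead of 0 passed with mxa in mitfa tumours. The cause was not tested.

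Replicate numbers are shared between groups. Within each group they follow the alphabetical order of the library names, so a shared number by itself marks no pairing. Same-numbered tumours had correlations of -0.31 to 0.17 in their deviations from group means. Tumours with different numbers were not compared, so whether same-numbered tumours share more than a number was not tested. With the replicate block on tumours 1 to 6 of both groups, 5 interferon genes fell, and in the pathway lists 43 fell and 0 rose by edgeR. That fit has fewer tumours, and of 17668 genes tested 2216 (12.5%) were lower and 2279 higher.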

Other observations

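Within single tumours, ratios of CPM between members spread over the groups as follows. The ratio of IRF7 to irf9 was 0.555 to 5.54 in mitfa tumours and 0.0841 to 0.646 in sox10 tumours. The ratio of mxa to RSAD2 was 1.09 to 3.21 and 0.165 to 1.68, and the lowest mitfa value was that of tumour 6. The pairs were picked after their values were seen, and the ratios were not tested.

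The ligands ifnphi2, ifnphi3 and ifng1r were too low for the test. They had 41, 24 and 29 reads in all mitfa tumours together and 13, 41 and 16 reads in all sox10 tumours. Ifng1 was highest in sox10 tumour 8, at 74 reads or 3.88 CPM, and had 1 to 34 reads in the other 11.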
